A study of Mus musculus with 9 samples.

Results

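Platelets carry a small set of adhesion receptors on their surface and store chemokines in their alpha granules, and the transcripts of 10 such genes were examined in mouse blood. The members were chosen by name as rows of the deposited gene table, which lists 20926 genes. They were the GPIb-IX-V complex genes Gp1ba, Gp1bb, Gp9 and Gp5, the integrin genes Itga2b and Itgb3, the activating receptor genes Gp6 and Clec1b, and the granule chemokine genes Pf4 and Ppbp. All 10 were present in the table and all 10 were among the 12366 genes tested.

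Total blood RNA was sequenced in 9 libraries, with 3 in each of 3 groups of male DBA/1 mice labelled as 7 weeks old. In the study, 7 weeks is the age at division into groups, and the booster and the irradiation came later. Ctrl mice were the control group and were not irradiated. CIA mice had collagen-induced arthritis, a model of rheumatoid arthritis raised in the study by injecting chick type II collagen in adjuvant with a later booster, and were not irradiated. CIA+THz mice were arthritic in the same way and received 0.1 THz irradiation on the swollen ankles for 30 min a day over 14 days, kept under isoflurane during each exposure. The study describes the anaesthesia for the irradiation, so that anaesthesia and irradiation cannot be told apart in the CIA+THz group. No label says whether a library is 1 mouse or a pool, so the p-values measure the spread between these libraries. Comparing CIA with Ctrl asks what arthritis was accompanied by in blood, and comparing CIA+THz with CIA asks the same of the irradiation.

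Platelets are cell fragments without a nucleus, released by megakaryocytes, and their mRNA is largely inherited from those cells. At a damaged vessel wall the GPIb-IX-V complex catches von Willebrand factor, GPVI binds collagen, and the integrin made of the Itga2b and Itgb3 products then binds fibrinogen and links platelets to each other. Activated platelets release their alpha granules, in which the Pf4 and Ppbp products are the most abundant chemokines. In inflamed joints platelets are known to be activated through GPVI and to shed vesicles.

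The levels below are FPKM (fragments counted per length of transcript and per library size) divided by 1 factor per library, which ranged from 0.847 to 1.24 and was highest in the 3 CIA+THz libraries. The depth of the libraries is unknown, since the FPKM give no counts. The labels call the material blood leukocyte, but Alas2, the heme synthesis enzyme of red cell precursors, made up 11.4 to 16.7% of the summed FPKM, and Ptprc, the pan-leukocyte gene, ranged from 66.8 to 149.7 rescaled FPKM, with CIA 1 and CIA 2 lowest at 70.8 and 66.8 and CIA 3 at 141. The 10 platelet genes together made up 0.836 to 0.928% of the summed FPKM in Ctrl. The shares ran from 0.782 to 0.966% in CIA and from 0.854 to 0.918% in CIA+THz, so that they overlapped between all 3 groups. Ppbp and Pf4, at means of 2204 and 1035 rescaled FPKM, weigh most in this share, since no other member had a mean above 291. In bulk blood, fewer platelets and less RNA per platelet cannot be told apart.

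The members lay between the 84.1 and 99.8 percentiles of the tested genes by mean level. Ppbp, a precursor of neutrophil-attracting peptides, was highest at a mean of 2204 rescaled FPKM over the 9 libraries, followed by Pf4, the heparin-binding platelet factor 4, at 1035. Gp5 at 291, Gp9 at 286, Itga2b at 207, Gp1bb at 178, Clec1b at 154 and Itgb3 at 121 formed a middle range in which the ranges of neighbouring genes overlapped. Gp1ba at 58.2 and Gp6 at 29.0 were lowest. The lowest library of Ppbp stood above the highest of Pf4, the lowest of Pf4 above the highest of Gp5, the lowest of Itgb3 above the highest of Gp1ba, and the lowest of Gp1ba above the highest of Gp6. The subunit genes of the GPIb-IX-V complex therefore differed in level per length, with Gp1ba below the other three in every library.

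Upstream sequences are shown for the 5 members that differed at an unadjusted p below 0.05 in CIA against Ctrl or in CIA+THz against CIA and had a window, because genes of the megakaryocyte lineage are classically controlled by GATA and ETS family transcription factors. RefSeq start-site windows on GRCm38.p6 were found for 9 of the 10 members, all except Itgb3. For Itga2b the GENCODE annotation has the gene reach to position 102470122, so most of the RefSeq window shown lies inside the GENCODE gene. The 250 bases before the start site are printed 5′ to 3′ on the gene's strand, and capitals mark a 6-letter motif of either family found on either strand. The letters searched for the GATA family were AGATAA. The letters searched for the ETS family were GGAAGT, and the capitals in the windows of Itga2b and Pf4 are its reverse complement.
Itga2b, chr11:102469884-102470133, minus strand: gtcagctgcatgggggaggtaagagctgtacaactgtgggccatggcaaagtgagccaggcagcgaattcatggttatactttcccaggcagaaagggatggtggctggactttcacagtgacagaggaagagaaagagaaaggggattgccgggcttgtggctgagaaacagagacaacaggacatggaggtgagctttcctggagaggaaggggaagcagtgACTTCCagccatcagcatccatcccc
Gp1bb, chr16:18622404-18622653, minus strand: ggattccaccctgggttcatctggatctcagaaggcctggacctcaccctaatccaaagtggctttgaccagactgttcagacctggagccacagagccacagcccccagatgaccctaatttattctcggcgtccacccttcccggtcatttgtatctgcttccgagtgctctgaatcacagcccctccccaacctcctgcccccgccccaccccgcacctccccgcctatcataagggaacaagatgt
Gp9, chr6:87777820-87778069, plus strand: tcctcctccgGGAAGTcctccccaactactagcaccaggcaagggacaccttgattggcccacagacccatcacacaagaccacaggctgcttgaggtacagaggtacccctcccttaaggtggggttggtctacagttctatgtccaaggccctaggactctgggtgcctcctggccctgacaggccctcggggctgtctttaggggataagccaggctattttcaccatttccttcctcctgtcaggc
Gp6, chr7:4397745-4397994, minus strand: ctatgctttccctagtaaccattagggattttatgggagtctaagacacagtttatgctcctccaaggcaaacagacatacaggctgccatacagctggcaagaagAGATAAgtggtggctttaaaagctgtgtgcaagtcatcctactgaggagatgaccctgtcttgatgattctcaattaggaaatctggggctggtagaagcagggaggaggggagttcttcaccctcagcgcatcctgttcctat
Pf4, chr5:90772185-90772434, plus strand: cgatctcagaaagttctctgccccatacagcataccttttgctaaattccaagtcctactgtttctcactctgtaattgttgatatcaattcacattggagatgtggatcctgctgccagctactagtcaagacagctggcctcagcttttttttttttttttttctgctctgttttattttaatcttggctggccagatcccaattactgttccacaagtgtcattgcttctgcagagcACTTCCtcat

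In windows that run from 250 bases before to 50 after the start site, AGATAA was found in 4 of the 9 member windows (Gp5, Gp6, Clec1b and Pf4) and in 11.2% of all 32851 windows. GGAAGT was found in 6 of 9 (Itga2b, Gp5, Gp6, Gp9, Pf4 and Ppbp) and in 23.8% of all windows. Gp5, Gp6 and Pf4 held both, as did 2.43% of all windows. The first letter of the GGAAGT match lay 26 bases before the start site in Itga2b, 56 in Gp5, 57 in Ppbp, 10 in Pf4 and 240 in Gp9, and in Gp6 it was base 17 from the start site on. The windows of Gp1ba and Gp1bb held neither of these exact strings of letters. Other forms of a GATA or ETS site were not searched for in any window. These matches describe the letters of the windows, and no binding was measured.

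**Figure D1:**
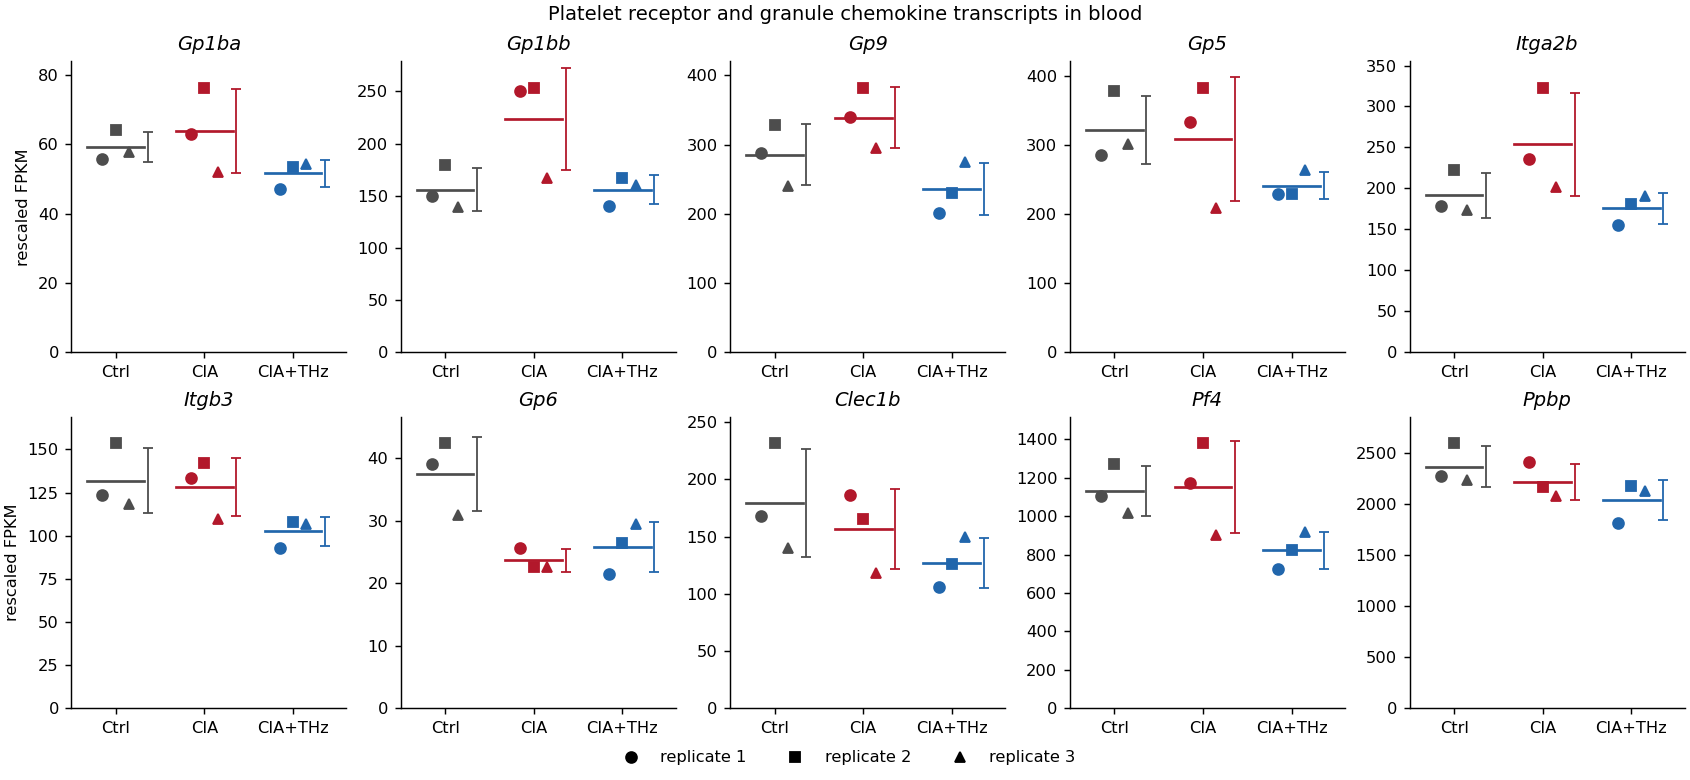
Level of each platelet gene (y axis, rescaled FPKM, from 0) in the Ctrl, CIA and CIA+THz groups, with 1 point per library, the line at the mean and the bar beside it the SD (n = 3). Gp6 separates Ctrl, at 31.0 or above, from CIA and CIA+THz, at 29.4 or below. In CIA against Ctrl, 11.8% of all genes are lower without overlap. Most other members have their lowest mean in CIA+THz. By SD, Itga2b, Gp1ba, Gp1bb, Gp5 and Pf4 are widest in CIA, and Itgb3, Gp9, Clec1b and Ppbp in Ctrl.

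The GPIb-IX-V genes encode the receptor that slows platelets on von Willebrand factor, with Gp1ba coding for the ligand-binding alpha chain. Gp1ba stood at 55.7, 64.0 and 57.9 rescaled FPKM in Ctrl libraries 1, 2 and 3, at 62.9, 76.3 and 52.1 in CIA, and at 47.1, 53.5 and 54.3 in CIA+THz. The CIA range enclosed that of Ctrl, and all 3 CIA+THz libraries were below the lowest Ctrl library. Its log2 fold change was 0.09 for CIA against Ctrl, -0.29 for CIA+THz against CIA and -0.20 for CIA+THz against Ctrl (limma, adjusted p = 0.80, 0.45 and 0.37), and the 95% interval of each included 0.

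Gp1bb encodes the beta chain, which is disulfide-linked to the alpha chain. Its levels were 149, 179 and 139 in Ctrl, 249.9, 254 and 167 in CIA, and 140.0, 167 and 160.2 in CIA+THz. CIA libraries 1 and 2 stood far above every other library, whereas CIA 3 lay within the Ctrl range. The log2 fold change was 0.50 ± 0.19 (SE) in CIA against Ctrl (limma, adjusted p = 0.25) and -0.50 ± 0.18 in CIA+THz against CIA (adjusted p = 0.32), with a 95% interval of 0.05 to 0.95 for the first and of -0.92 to -0.08 for the second. CIA+THz and Ctrl had means of 156 in each case, and the interval of that difference ran from -0.30 to 0.30 on the log2 scale. Gp1bb lies on chromosome 16 at 18620317 to 18622403 (minus strand, GENCODE on GRCm38) and shares exon sequence with Sept5 on the same strand. Sept5 was at 1.16 to 4.08 rescaled FPKM, and how reads of the shared sequence were assigned was not tested.

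Gp9 encodes the small subunit needed for surface display of the complex. It stood at 288, 328 and 239.8 in Ctrl, at 339, 382 and 294 in CIA, and at 201, 229.5 and 275 in CIA+THz. The highest CIA+THz library lay below the lowest CIA library, and both groups overlapped Ctrl. Its log2 fold change was -0.53 ± 0.15 in CIA+THz against CIA, the most negative of the 10 genes in that comparison, with a 95% interval of -0.89 to -0.17 (limma, adjusted p = 0.26), and 0.25 in CIA against Ctrl, with an interval of -0.13 to 0.63.

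Gp5 encodes the thrombin-cleaved subunit that is shed from activated platelets. Its values were 286, 378 and 301 in Ctrl, 334, 383 and 209 in CIA, and 229.9, 229.8 and 263 in CIA+THz. CIA spanned the widest range, with its CIA 3 library the lowest of all 9 and its CIA 2 library the highest. The log2 fold change in CIA+THz against Ctrl was -0.41 ± 0.13 (limma, adjusted p = 0.19) with no overlap between the groups, and in CIA+THz against CIA it was -0.31 with a 95% interval of -0.84 to 0.21.

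The next pair of genes encode the integrin subunits, which form the fibrinogen receptor. Itga2b, the alpha subunit used as a marker of the megakaryocyte lineage, stood at 178, 223 and 174 in Ctrl, at 236, 323 and 202 in CIA, and at 155, 181 and 191 in CIA+THz. CIA 2 was the highest library, and all 3 CIA libraries exceeded all 3 CIA+THz libraries. The log2 fold change was 0.39 ± 0.20 in CIA against Ctrl (limma, adjusted p = 0.36), with a 95% interval of -0.07 to 0.85, and -0.51 ± 0.18 in CIA+THz against CIA (adjusted p = 0.32), with an interval of -0.94 to -0.07.

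Itgb3 encodes the beta subunit, which in other cells also pairs with the alpha V chain. It stood at 124, 154 and 118 in Ctrl, at 133, 142 and 109.6 in CIA, and at 92.9, 108 and 107 in CIA+THz. Ctrl and CIA overlapped almost entirely, and each CIA+THz library was lower than all 6 libraries of the other groups. The log2 fold change was -0.04 in CIA against Ctrl (limma, adjusted p = 0.92), -0.32 ± 0.12 in CIA+THz against CIA (adjusted p = 0.35) and -0.36 ± 0.13 in CIA+THz against Ctrl (adjusted p = 0.21).

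Gp6 and Clec1b encode the receptors that activate platelets through tyrosine kinases, the first on binding collagen and the second on binding podoplanin. Gp6 stood at 39.0, 42.4 and 31.0 in Ctrl, at 25.7, 22.6 and 22.6 in CIA, and at 21.4, 26.4 and 29.4 in CIA+THz. All 6 libraries of arthritic mice were below the lowest Ctrl library, and CIA and CIA+THz overlapped. Of all genes, 11.8% were lower without overlap in CIA against Ctrl and 12% in CIA+THz against Ctrl. Between CIA and Ctrl the log2 difference was -0.65 ± 0.15, a level 0.636 times that of Ctrl, with a 95% interval of -1.005 to -0.30 (limma, adjusted p = 0.11). It was the largest difference of any of the 10 genes in any comparison, and it did not reach the study's fold limit of 0.67. The difference was -0.54 ± 0.17 in CIA+THz against Ctrl (limma, adjusted p = 0.17), and in CIA+THz against CIA it was 0.11 with a 95% interval of -0.22 to 0.45. Fcer1g, the signalling chain that GPVI needs and that myeloid cells share, did not follow Gp6, with means of 412, 578 and 404 in the Ctrl, CIA and CIA+THz groups.

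Clec1b stood at 168, 232 and 139.6 in Ctrl, at 186, 165 and 118 in CIA, and at 106, 126 and 149 in CIA+THz. The groups overlapped in all 3 comparisons, and Ctrl 2 was the highest library. Its log2 fold change was -0.19 in CIA against Ctrl (limma, adjusted p = 0.71), -0.29 in CIA+THz against CIA (adjusted p = 0.57) and -0.48 ± 0.21 in CIA+THz against Ctrl (adjusted p = 0.28). Clec1b overlaps exon sequence of Clec9a, a dendritic cell gene on the same strand, which was at 1.96 to 4.797 rescaled FPKM.

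The granule chemokine genes are neighbours on chromosome 5, where Ppbp ends at 90770063 and Pf4 starts at 90772435 (GENCODE on GRCm38), both on the plus strand. Pf4 stood at 1103, 1271 and 1016 in Ctrl, at 1175, 1380.3 and 903 in CIA, and at 727, 823 and 916 in CIA+THz. The CIA+THz libraries were all lower than the Ctrl libraries, and only CIA 3 among the CIA libraries came within the CIA+THz range. The log2 fold change was 0.01 in CIA against Ctrl (limma, adjusted p = 0.99), -0.47 ± 0.18 in CIA+THz against CIA (adjusted p = 0.35) and -0.46 ± 0.15 in CIA+THz against Ctrl (adjusted p = 0.18).

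Ppbp stood at 2268, 2591 and 2229 in Ctrl, at 2403, 2161 and 2072 in CIA, and at 1815, 2174 and 2126 in CIA+THz. It varied least of the 10 genes, 1.43-fold between its lowest and highest library. Its log2 fold change was -0.09 in CIA against Ctrl (limma, adjusted p = 0.82), -0.12 in CIA+THz against CIA (adjusted p = 0.75) and -0.21 in CIA+THz against Ctrl (adjusted p = 0.52), and the 95% interval of the second ran from -0.46 to 0.22.

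**Figure D2:**
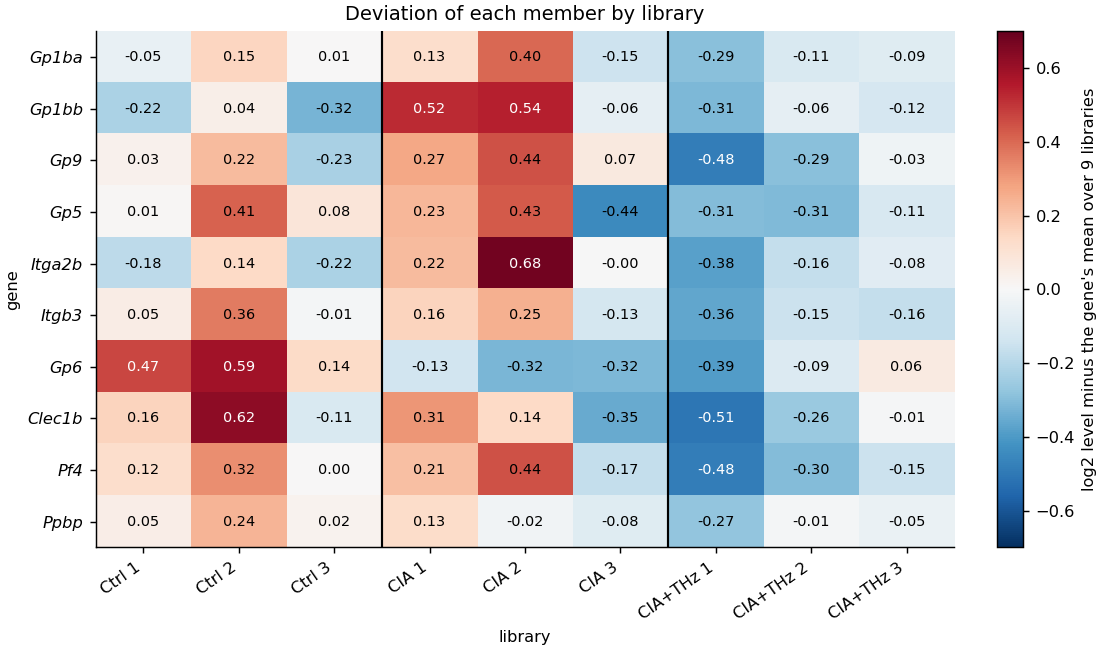
Deviation of each platelet gene (rows) from its own mean over 9 libraries, in log2 units, by library (columns), with red above and blue below the mean. CIA+THz 1 is the lowest library for 8 of the 10 genes, CIA 2 the highest for 6, and CIA 3 stands below the mean for 9.

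The libraries within a group also differed from each other. Ctrl 2 was above the mean of all 9 libraries for all 10 genes and was the highest library for 4 of them. CIA 2 was the highest for 6, whereas CIA 3 was above the mean for only 1 gene, Gp9. Averaged over the 10 genes, the log2 deviation was 0.21, 0.30 and -0.16 in the CIA libraries, 0.04, 0.31 and -0.06 in Ctrl, and -0.38, -0.18 and -0.07 in CIA+THz. The 2 CIA libraries with the positive values were those with the low Ptprc level, and the part of leukocytes in this was not tested. Gp6 departed from this common pattern, since it was the lowest of the 10 genes in CIA 1 and CIA 2 and the highest in Ctrl 1.

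In CIA against Ctrl, 5 genes were higher and 5 lower, with a median log2 fold change of -0.01, equal to the -0.01 of all genes tested. Gp6 alone did not overlap between the groups, lower in CIA, that is 1 of 10 beside 11.8% of all genes. No member was higher without overlap, as 11.8% of all genes were. At an unadjusted p below 0.05 there was 1 higher gene (Gp1bb) and 1 lower gene (Gp6), that is 2 of 10 members beside 17.3% of all genes, which is close to the background. None met the study's criterion of p below 0.05 and an absolute log2 fold change above 0.67, which 9.04% of all genes met, and none had an adjusted p below 0.05 by limma, as did 0.154% of all genes. Leaving out Ctrl 1, Ctrl 3, CIA 1 or CIA 2 reduced the 2 genes to 1. Without Ctrl 3 or CIA 1 the Gp6 change passed the criterion, at -0.78 and -0.71, and without CIA 3 that of Gp1bb passed it, at 0.70.

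In CIA+THz against CIA, 9 of the 10 genes were lower, with a median log2 fold change of -0.32 beside 0.03 for all genes. Itga2b, Itgb3, Gp1bb, Gp9 and Pf4 were lower at an unadjusted p below 0.05, 5 of 10 beside 7.33% of all genes that were lower at that threshold and 13.2% that passed it in either direction. The first 4 of these did not overlap between the groups, as 10.2% of all genes did not in that direction, and none of the 10 was higher without overlap, as 9.38% of all genes were. For Gp1bb the gap was narrow, from 166.6 in CIA+THz 2 to 166.7 in CIA 3. No gene of the 10 met the criterion with the fold limit, which 4.54% of all genes met, and none had an adjusted p below 0.05 by limma, as did 0% of all genes. The count of 5 rested on single libraries, since it became 1 without CIA 1, 1 without CIA 2, 8 without CIA 3, 1 without CIA+THz 1, 2 without CIA+THz 2 and 3 without CIA+THz 3. With 1 prior variance for all genes in place of a trend on the mean it was 1, and with the replicate number as a block it was 3. Gp1bb alone passed the criterion without CIA 3, at -0.70.

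The scale mattered in this comparison. With FPKM as deposited, the median of all genes was 0.29 higher in CIA+THz than in CIA, against 0.03 after rescaling, and the platelet genes had a median of -0.04, with 8 lower, 2 higher (Gp6 and Ppbp) and 1, the higher Gp6 at 0.39, at p below 0.05. Relative to the median of all genes, the median of the 10 genes was -0.34 after rescaling and -0.33 as deposited. Rescaling divides all genes of a library by the same factor, so these values are nearly equal by construction. On rescaled values, all 10 genes kept their direction in every alternative run for this comparison, and with FPKM as deposited Ppbp turned to 0.16.

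In CIA+THz against Ctrl, 9 of 10 genes were lower and Gp1bb was level, with a median of -0.32 beside 0.04 for all genes. Itgb3, Gp5, Gp6 and Pf4 were lower at an unadjusted p below 0.05, 4 of 10 beside 9.69% of all genes. For 6 of the 10, these 4 with Gp1ba and Ppbp, every CIA+THz library lay below every Ctrl library, beside 12% of all genes. None met the criterion, which 7.88% of all genes met, and none had an adjusted p below 0.05 by limma, as did 0.105% of all genes. The 4 became 1 without CIA+THz 1, 2 without CIA+THz 2 and 6 without Ctrl 3, and without Ctrl 3 Gp6 passed the criterion at -0.67. With FPKM as deposited 5 genes were higher and 5 lower, the median was -0.01 beside 0.33 for all genes, and 1 gene, Gp1bb at 0.31, was at p below 0.05. The comparisons share libraries, so the values of the CIA+THz group enter both of its comparisons.

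**Figure D3:**
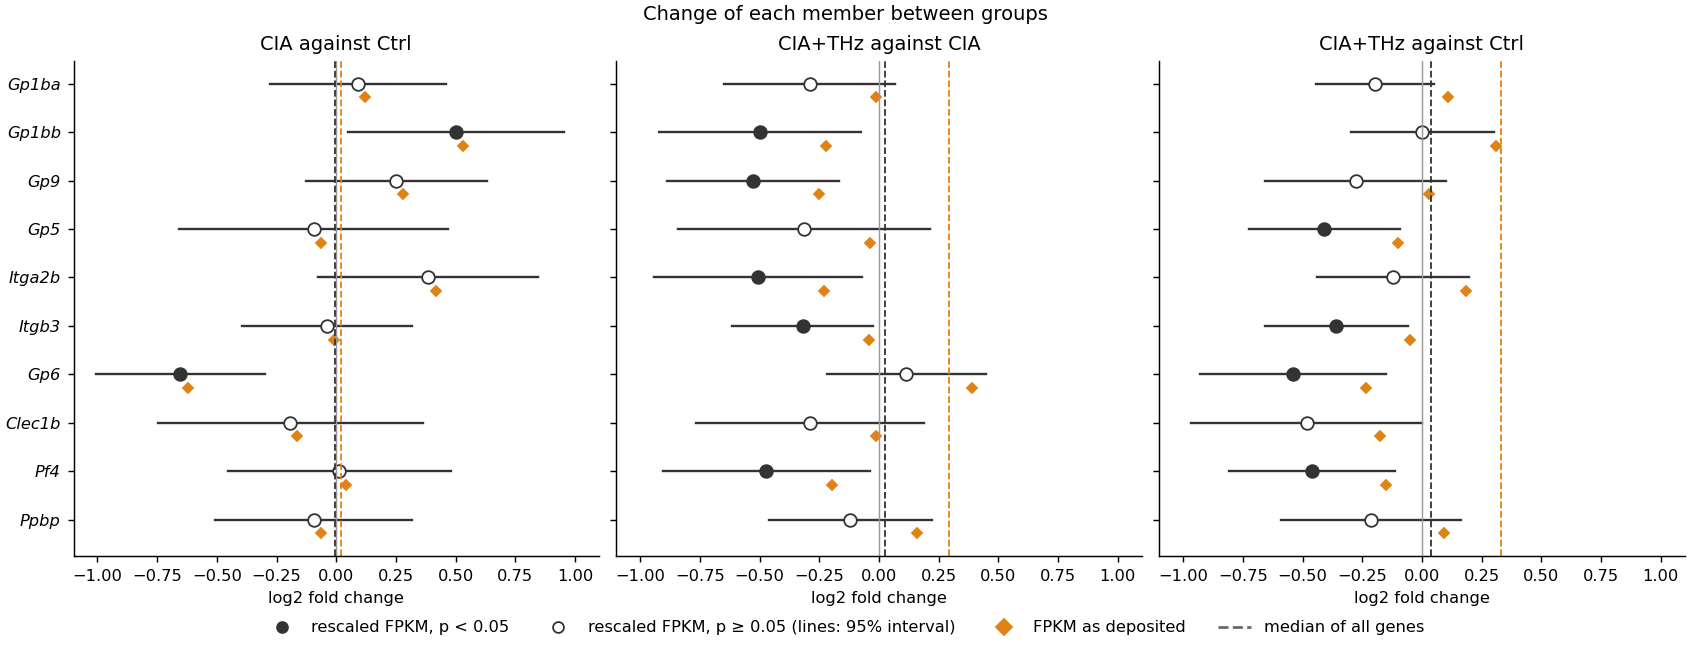
Log2 fold change of each platelet gene (x axis) in the 3 comparisons, from rescaled FPKM (circles, filled at unadjusted p below 0.05, with lines for the 95% interval) and from FPKM as deposited (diamonds), and dashed lines at the median of all genes on each scale. For CIA+THz against CIA 9 circles lie below 0, and the diamonds move right together with the median of all genes.

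Across the 3 groups, 5 of the 10 genes had an unadjusted p below 0.05 in the limma F test, namely Itga2b (adjusted p = 0.21), Gp1bb (adjusted p = 0.16), Gp9 (adjusted p = 0.17), Gp6 (adjusted p = 0.082) and Pf4 (adjusted p = 0.20), beside 21.3% of all genes. No adjusted p was below 0.05, as was the case for 2.53% of all genes. Without Ctrl 1, CIA 1, CIA 2, CIA 3, CIA+THz 1 and CIA+THz 2 the count was 3, 1, 2, 8, 2 and 2 in turn.

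A ratio of 2 genes within a library does not depend on the scale of that library, so partner genes were set against each other in 6 ratios, chosen after the values were seen. Itga2b to Itgb3 was 1.44, 1.45 and 1.47 in Ctrl, 1.77, 2.27 and 1.84 in CIA, and 1.67, 1.67 and 1.79 in CIA+THz. All 6 libraries of arthritic mice were above Ctrl, in which the ratio of the integrin subunits varied by only 0.0131 (SD, n = 3). The CIA mean was 1.34-fold that of Ctrl on the log scale (exact permutation test, two-sided, p = 0.1, adjusted p = 0.2).

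The Gp1bb to Gp1ba ratio was 2.68, 2.80 and 2.40 in Ctrl, 3.97, 3.32 and 3.20 in CIA, and 2.97, 3.11 and 2.95 in CIA+THz. The 3 groups did not overlap, with Ctrl lowest, CIA+THz between and CIA highest. Relative to the other 9 genes, Gp1bb itself was 0.40 to 0.64 higher (log2) in CIA and 0.24 to 0.42 higher in CIA+THz than in the mean of Ctrl. Gp9 to Gp1ba overlapped in every comparison, and Gp5 to Gp1ba averaged 5.41 ± 0.43, 4.78 ± 0.68 and 4.68 ± 0.33 (SD, n = 3) in the same order of groups, with no overlap between Ctrl and CIA+THz alone.

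Pf4 to Ppbp was 0.486, 0.490 and 0.456 in Ctrl, 0.489, 0.639 and 0.436 in CIA, and 0.4003, 0.379 and 0.431 in CIA+THz. The CIA+THz libraries were below all others, although CIA+THz 3 and CIA 3 differed by little. The Gp6 to Clec1b ratio was 0.233, 0.183 and 0.222 in Ctrl, 0.138, 0.137 and 0.192 in CIA, and 0.203, 0.210 and 0.197 in CIA+THz. It was higher in all CIA+THz libraries than in all CIA libraries, by a narrow gap to CIA 3. Relative to the other 9 genes, Gp6 was 0.50 to 1.02 lower (log2) in CIA and 0.18 to 0.35 lower in CIA+THz than in the mean of Ctrl.

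Of the 18 exact permutation tests on these ratios, 9 reached p = 0.1, the smallest that 3 against 3 libraries allow, and no adjusted p was below 0.2. The groups did not overlap for 2 of 6 ratios in CIA against Ctrl, for 3 of 6 in CIA+THz against CIA and 4 of 6 in CIA+THz against Ctrl. Among all ratios of 2 genes with a mean of at least 20, they did not overlap for 33.3%, 25.8% and 35.5%, so separate groups were common among ratios of any genes.

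**Figure D4:**
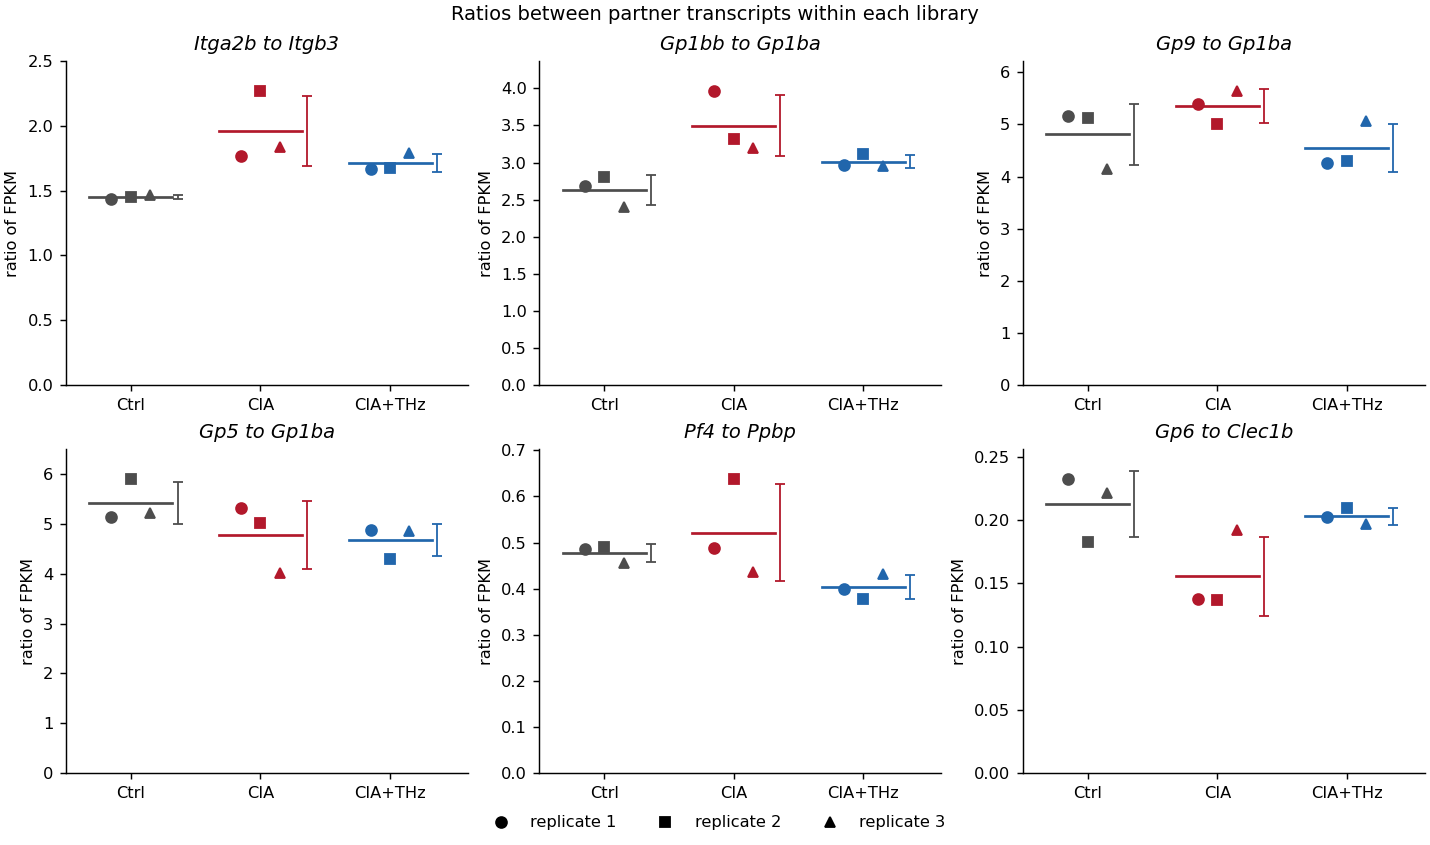
Ratio of the FPKM of partner genes (y axis, from 0) by group, with 1 point per library, the line at the mean and the bar beside it the SD (n = 3). Itga2b to Itgb3 lies within 1.44 to 1.47 in Ctrl and at 1.67 or above in all libraries of arthritic mice.

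Other genes known from platelets, some of which other blood cells also express, were followed in 6 lists. All 77 genes were tested, and F13a1 is in the monocyte list as well. In CIA against Ctrl, 9 were higher and 15 lower at an unadjusted p below 0.05, beside 8.85% and 8.45% of all genes, with a median of -0.11, and 5 met the criterion, all of them lower, which is a smaller share than the 9.04% of all genes that met it. Cd226, an adhesion receptor that lymphocytes also carry, fell from 59.6 ± 8.1 to 27.0 ± 2.1 rescaled FPKM (SD, n = 3), a log2 fold change of -1.13 with an adjusted p of 0.047 by limma, the only one below 0.05. NK and T cell markers were lower in the same comparison. All 6 NK cell genes tested (median -0.999, 4 past the criterion) and all 11 T cell genes tested (median -0.28, 1 past it) were below Ctrl. Of 10 B cell genes, 7 were higher and 3 lower (median 0.19). The part of these cells in the Cd226 difference was not tested. Rgs18, which restrains G protein signalling in platelets, fell from 206 ± 31 to 126 ± 19 (log2 fold change -0.72, adjusted p = 0.11 by limma). The others were the growth factor gene Pdgfa (-0.999), the transcription factor gene Runx1 (-0.74) and the chemokine gene Cxcl5 (-2.36), which was at a mean of 0.415 in Ctrl and listed at 0 in all 3 CIA libraries.

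Of the 77 genes, 57 had a negative log2 fold change in CIA+THz against CIA, including 21 at an unadjusted p below 0.05, beside 7.33% of all genes, while none was higher at that threshold, as 5.89% of all genes were. The 21 include Fcer1g and F13a1, and the part of other blood cells in this count was not tested. Jam3, a junctional adhesion molecule, met the criterion at a mean of only 0.21 rescaled FPKM. The list medians lay between -0.16 and -0.25, and the lists differed in how one-sided they were. Lower genes were 8 of 8 for granule formation and release (3 at an unadjusted p below 0.05), 10 of 11 for the cytoskeleton (4), 13 of 17 for signalling and eicosanoid enzymes (3), 12 of 18 for other receptors (6), 9 of 14 for other granule contents (4) and 5 of 9 for megakaryocyte transcription factors (1). On the deposited scale 50 of the 77 genes were higher, so that this direction too is relative to the median of all genes. Against Ctrl, 61 were lower in CIA+THz, 26 of them at p below 0.05 (9.69% of all genes) with 3 higher at it (8.39% of all genes). Cd226 (-0.91), Rgs18 (-0.83) and Thbs1 (-0.74), the gene of the granule protein thrombospondin, met the criterion, as 7.88% of all genes did, with adjusted p values of 0.13, 0.11 and 0.12 by limma. On the deposited scale their log2 fold changes were -0.60, -0.52 and -0.43, none of which reached the fold limit. Of all 77 genes, 40 were higher on that scale.

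The genes with the highest level in their lists showed the range within the platelet set. Gng11, a G protein gamma subunit gene, exceeded all 10 members, at 3929 ± 738, 3636 ± 769 and 2666 ± 578 for Ctrl, CIA and CIA+THz (SD, n = 3). Myh9, non-muscle myosin that other blood cells also express, was nearly level at 899.8 ± 48.8, 921 ± 134 and 834 ± 51. Cd9, a tetraspanin gene, was at 339 ± 45, 254 ± 39 and 229 ± 34, and Stx11, a granule release gene, at 139 ± 26, 104.0 ± 2.8 and 100.3 ± 9.8, both with Ctrl above the groups of arthritic mice as for Gp6. Such a gap was common, at 11.8% of all genes in CIA against Ctrl and 12% in CIA+THz against Ctrl. Srgn, the granule proteoglycan gene shared with leukocytes, ranged from 84.7 to 431 with no separation. Nfe2, from the list of megakaryocyte transcription factors, was at 132 ± 19, 145 ± 18 and 111 ± 11.

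**Figure D5:**
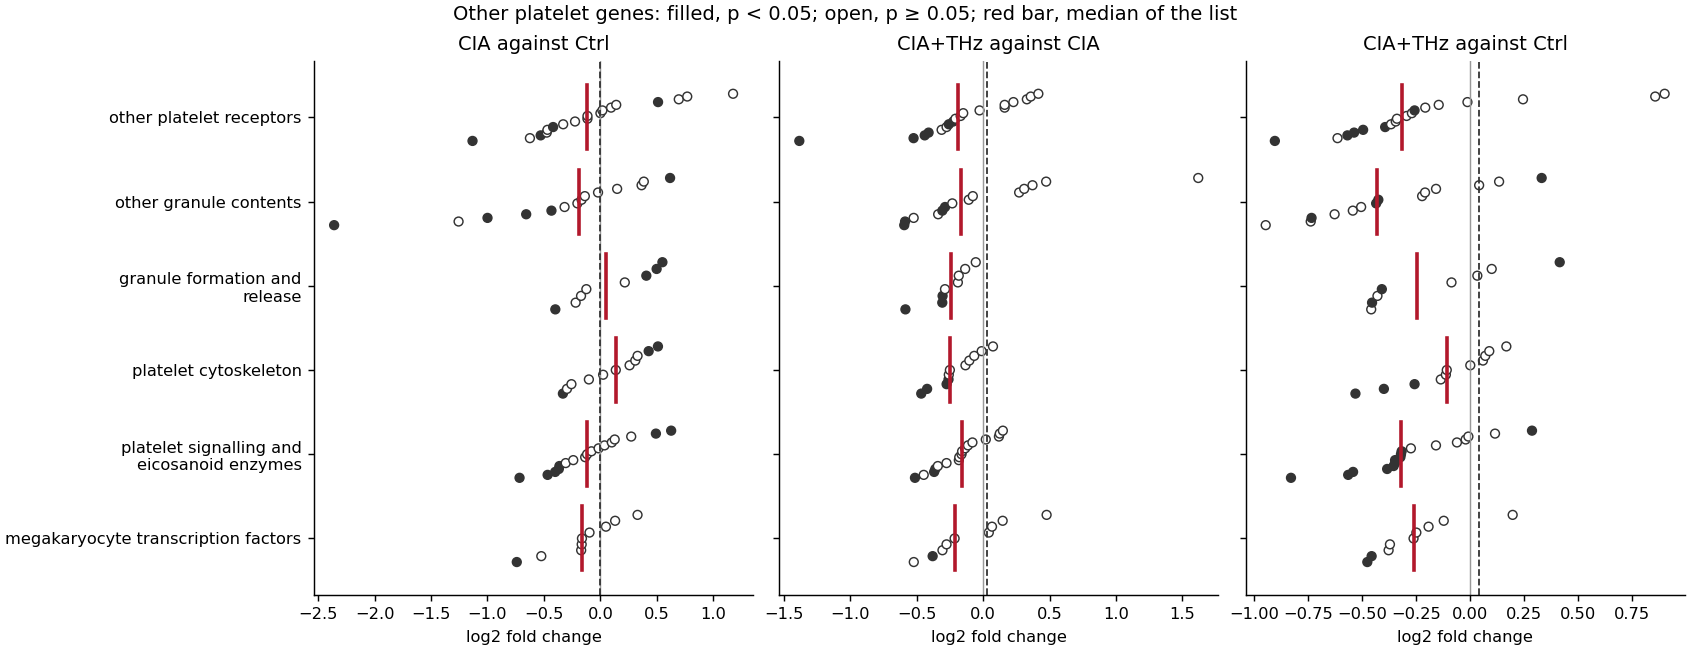
Log2 fold change (x axis, rescaled FPKM) of each of the 77 other platelet genes by list, 1 point per gene and filled at unadjusted p below 0.05, with a red bar at the median of the list and a dashed line at the median of all genes. For CIA+THz against CIA no gene is filled to the right of 0, and 21 are filled to the left.

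The common pattern of the 10 genes over the 9 libraries was most closely followed, among 9738 other genes with a mean of at least 1, by Zfand3, Dynlt1c, Nfe2, H2bc4, Ccdc92, Pcp4l1, Ptgs1, Dap, Bcap31 and Pttg1ip. Their root mean square distance from the members' mean, after centring each gene on the log2 scale, was 0.05 to 0.07, beside a median of 0.38 over all genes compared. Nfe2 and Ptgs1 belong to the platelet lists. Among the members, Itgb3 was closest to the common pattern at 0.05 and Gp6 farthest at 0.31. Each member is part of the mean it is measured against, so these distances cannot be compared with those of other genes.

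Marker genes of other blood cells differed between the groups as well, in both directions. The summed level of 12 monocyte genes ranged from 3192 to 3561 for Ctrl, from 5482 to 6071 for CIA and from 3642 to 3934 for CIA+THz. In the same order, the sums of 12 neutrophil genes ranged from 12678 to 21421, 14771 to 19457 and 10855 to 12339, and those of 12 red cell precursor genes from 82725 to 128677, 100498 to 115131 and 56114 to 78491. The genes of the red cell list did not all follow its sum: their median log2 fold change in CIA+THz against CIA was -0.12, with 9 genes lower, 3 higher and 0 of 12 at an unadjusted p below 0.05 by limma, and with 9 higher on the deposited scale. Against Ctrl, 11 of the 12 were lower in CIA although the sums overlapped.

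Lymphocyte markers went the other way from the platelet genes when CIA+THz was compared with CIA. All 11 T cell genes tested were higher (median 0.36, 6 at an unadjusted p below 0.05), as were all 6 NK cell genes (median 0.61, 2 at that threshold) and 8 of 10 B cell genes (median 0.27, 2 at it). The 12 neutrophil genes were all lower (median -0.45, 9 at that threshold) and 11 of 12 monocyte genes were lower (median -0.47, 8 at it). Of all genes, 5.89% were higher and 7.33% lower at that threshold. On the deposited scale the median was -0.17 for neutrophil genes, with 2 higher, and -0.19 for monocyte genes, with 4 higher. The T, NK and B cell medians on that scale were 0.63, 0.88 and 0.54. Whether these cells had a part in the differences of the platelet genes was not tested. Of 13 ubiquitous genes taken as a reference, 11 were also lower in CIA+THz than in CIA and 2 higher (median -0.10). At an unadjusted p below 0.05 by limma, 4 were lower, beside 7.33% of all genes, and 0 were higher. Their sums ranged from 14980 to 18044 in CIA and from 10786 to 11693 in CIA+THz. On the deposited scale 9 of the 13 were higher. A lower rescaled level was thus not particular to the platelet genes. The 6 genes of endothelial cells, which also express some adhesion genes, summed to only 1.77 to 5.34.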

How the data were processed

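The authors sequenced total blood RNA as 2 × 150 bp paired-end reads and deposited 1 table of FPKM values for 20926 gene symbols in 9 libraries. The submitters' processing notes name build mm10, bcl2fastq 2.0, HISAT2, StringTie and DESeq2. Annotation, strand and filters are not given in the sources used here. Whole reads could not be recovered, so depth is unknown and no counting interval was computed.

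Libraries were rescaled by their median ratio to the geometric mean of the 10312 genes detected in all 9. The 12366 genes whose rescaled FPKM averaged 0.1 or more entered limma 3.58.1 (trend on the mean, R 4.3.3) as log2(rescaled FPKM + 0.1). Fold changes on this scale understate those of low genes. Pairs of groups were fitted on their 6 libraries, and the 3 groups by an F test. The criterion, an unadjusted p below 0.05 with an absolute log2 fold change above 0.67, follows the study, and Benjamini-Hochberg adjustment ran over all genes tested. Partner ratios used two-sided exact permutation tests adjusted over 18.

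All 10 members were named. From each other platelet list and comparison, up to 2 genes past the criterion with the largest change and the gene of highest mean were named, as were the 10 genes most like the members. Fcer1g, F13a1, Sept5 and Clec9a were named after their values were seen. The members and lists were chosen with earlier results of these data known. The code was tested on simulated libraries. Alternatives were other scalings, pseudocounts, filters, fits, a replicate block and leaving out each library. Start-site windows are from RefSeq and gene positions from GENCODE, both on GRCm38.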

Additional observations from a re-analysis of the deposited data

How the results depend on the processing

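The precision is limited by 3 libraries a group and by an unknown depth. The counts of the 10 genes at an unadjusted p below 0.05 depended on the processing, and the cause was not tested. They were 2 when CIA was set against Ctrl, 5 when CIA+THz was set against CIA, 4 when it was set against Ctrl and 5 across the 3 groups. With FPKM as deposited the last 3 counts were 1, 1 and 2, without a trend the 4 counts were 1, 1, 2 and 1, without a filter on low values the first was 1, and with adjusted p they were 0, 0, 0 and 0 by limma. Leaving out 1 library at a time gave 1 to 3, 1 to 8, 1 to 6 and 1 to 8, and the number past the criterion with the fold limit, 0 in each comparison, ranged from 0 to 1 in each.

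Replicate numbers were not taken to pair the mice, since the correlations of deviations between libraries of the same number (-0.05 to 0.03) were like those of other pairs (-0.03 to 0.06). With the replicate number as a block, the count in CIA+THz against CIA was 3, and no other of these counts moved by over 1.5 times.

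Of 450 alternative fold changes of the 10 genes, 19 had the other sign. With FPKM as deposited, CIA+THz against CIA turned to 0.16 for Ppbp, and CIA+THz against Ctrl turned to 0.19 for Itga2b, 0.11 for Gp1ba, 0.030 for Gp9 and 0.093 for Ppbp, since that scale raises the median of all genes. Leaving out 1 library at a time, CIA against Ctrl ranged from -0.12 to 0.076 for Itgb3, -0.046 to 0.23 for Gp1ba, -0.27 to 0.16 for Gp5, -0.36 to 0.0066 for Clec1b and -0.13 to 0.18 for Pf4, and CIA+THz against Ctrl from -0.077 to 0.11 for Gp1bb. The genes past the criterion in the whole table, 561 in CIA+THz against CIA and 975 in CIA+THz against Ctrl, were 1192 and 1716 as deposited, and a pseudocount of 1 gave 283 in the first. With adjusted p, 19 genes passed in CIA against Ctrl in place of 1118, 0 in CIA+THz against CIA and 13 in CIA+THz against Ctrl by limma. Leaving out Ctrl 3 gave 1487 in CIA+THz against Ctrl. Partner ratios do not change with the scale of a library.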
